A study of Drosophila suzukii with 24 samples.

Results

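The most abundant transcripts of adult Drosophila suzukii, the spotted wing drosophila, are described here. They are the 101 gene models, of 13584 in the authors' deposited tables, whose level reached 1000 FPKM in untreated lab flies and also in untreated field flies, with a lab over field ratio from 0.25 to 4. FPKM is a level per transcript length, scaled by mapped fragments. The scale of the deposited values also differs somewhat between tables, as given below. The genes were chosen by the untreated values of the malathion tables, so the levels of the untreated flies are a description and support nothing. The ratio limits left out 0 of the 101 gene models at that floor.

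Whole wild type adults, 5 to 7 days old, gave 24 RNA sequencing samples, 3 for each of 8 groups, and each sample pooled 10 flies. The groups are lab flies that survived spinosad, malathion or zeta-cypermethrin at an LC50 dose, untreated lab flies, field flies that survived each of the same insecticides, and untreated field flies. Lab flies were laboratory reared and field flies were collected in the field. The labels give no sex and do not say if replicates are from separate cultures, so p-values may cover technical spread only. The authors' tables give 1 FPKM value per group with its replicates pooled, so the levels below carry no spread between replicates, and the depth of each library is unknown. In whole flies, fewer cells of a type and less RNA per cell cannot be told apart.

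In adult insects, messenger RNA is divided very unevenly among genes. Genes for ribosomal proteins, muscle fibres, mitochondrial energy supply, digestion and, in females, yolk are typically among the strongest, because the cells that use them are many or make large amounts of 1 product. Strong transcripts of this kind also set the denominator of a relative scale, so a shift in them moves the values of every other gene. The files do not pair their DS10 identifiers with gene names, and 0 of the 101 identifiers occurred in the reference table of 18239 genes. The 101 genes are therefore called by identifier, no function is given to any of them, and a check of tissue or sex markers was not possible.

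The 101 genes are 0.744% of the gene models and held between 29.3% and 34.5% of the summed FPKM of a group. In lab flies their share was 34.3% in spinosad survivors, 33.6% in malathion survivors and 34.1% in zeta-cypermethrin survivors, against 34.5% in untreated flies. In field flies it was 29.3% in spinosad survivors, 29.3% in malathion survivors and 31.0% in zeta-cypermethrin survivors, against 30.9% in untreated flies. These untreated shares are those of the malathion tables. In the spinosad tables the untreated flies had 33.4% in the lab and 29.9% in the field, so in its own table the lab spinosad share was the higher one. All 4 lab shares lay above all 4 field shares, and within each population the survivors lay within 2 percentage points of the untreated flies. A share is free of the scale of its table, but with 1 pooled value per group the difference between the populations was not tested. The 10 first genes alone held 6.77% to 7.06% of the summed FPKM in lab groups and 5.78% to 6.44% in field groups.

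**Figure D1:**
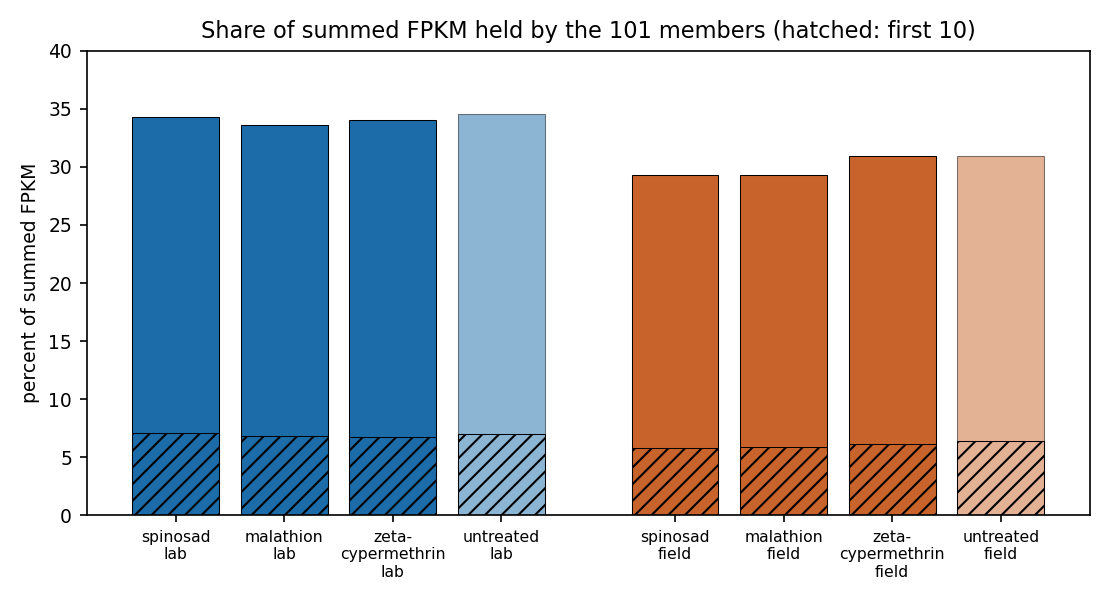
Bars give the percent of summed FPKM over all 13584 gene models that the 101 members held in each group, with survivors as full and untreated flies as pale bars, and the hatched part the first 10 members. Untreated values are those of the malathion tables. Lab groups (blue) lie at 33.6% to 34.5%, and field groups (orange) at 29.3% to 31.0%.

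Within the set the levels spread over less than a factor of 10. The median member stood at 2413 FPKM in untreated lab flies and 2031 FPKM in untreated field flies. The lowest stood at 1019 FPKM in the lab and 1003 FPKM in the field, and the highest at 6895 and 8373 FPKM. In untreated flies 87 members were higher in the lab and 14 in the field, with ratios of lab over field from 0.543 to 2.32 and a median of 1.19. The floor falls in a continuous range. DS10_00008400 (1352 FPKM in the lab, 1003 FPKM in the field), DS10_00007071 (1888 and 1006 FPKM) and DS10_00011223 (1019 and 1026 FPKM) were just inside it. DS10_00002931 (981 FPKM in the lab, 1316 FPKM in the field), DS10_00013269 (1157 and 981 FPKM) and DS10_00005997 (1305 and 958 FPKM) were just outside. A further 32 gene models reached 1000 FPKM in untreated lab flies only and 9 in untreated field flies only.

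**Figure D2:**
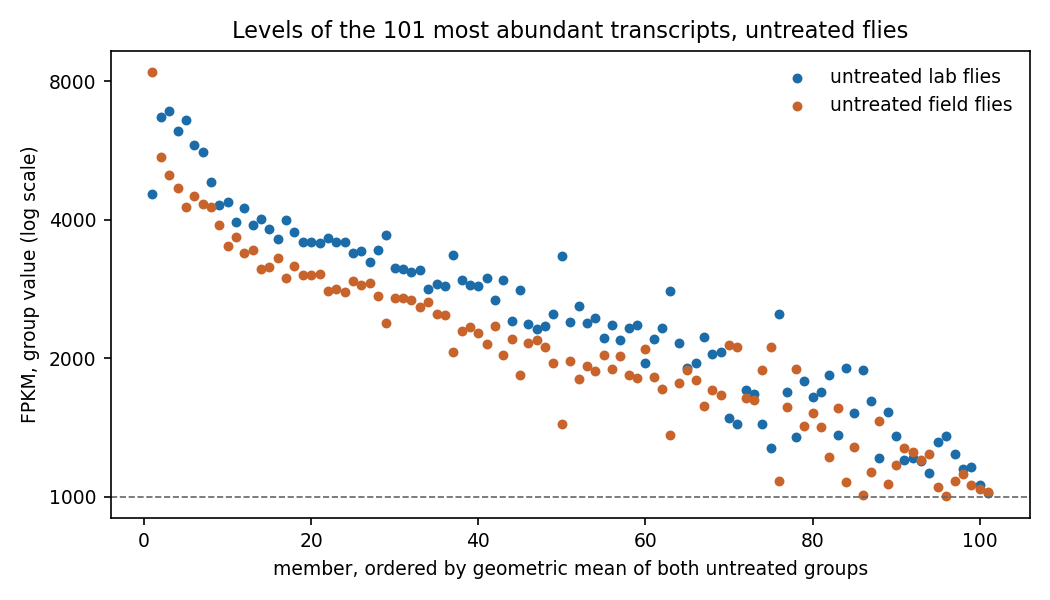
Each member is placed by its order in the geometric mean of both untreated groups (x axis) and by its FPKM in untreated lab flies (blue) and untreated field flies (orange) on a log axis, with the floor of 1000 FPKM as a dashed line. Most blue points lie above the orange ones, 87 of 101, and the first member is a clear exception, at 4547 FPKM in lab and 8373 FPKM in field flies.

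The gene with the highest mean level of the untreated groups, DS10_00006947, has a locus of 324 bp on scaffold 10 (1766472 to 1766795). In lab flies it stood at 4763, 4984 and 4316 FPKM in survivors of spinosad, malathion and zeta-cypermethrin, against 4547 FPKM in untreated flies. In field flies it stood at 4402, 6589 and 5540 FPKM in survivors of the same insecticides, against 8373 FPKM in untreated flies. The untreated field value was the highest of any gene in any group, and the field survivors of spinosad lay in the range of the lab groups.

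Next came DS10_00004931, on scaffold 4 (3815185 to 3815382), whose locus spans 198 bp. Its lab levels were 5369, 6804 and 7152 FPKM in survivors of spinosad, malathion and zeta-cypermethrin, against 6687 FPKM in untreated flies. Its field levels were 3869, 5502 and 6425 FPKM in survivors, against 5465 FPKM in untreated flies. It ranked first of all gene models in lab malathion and lab zeta-cypermethrin survivors. The spinosad values are the low ones in both populations, and they come from tables that also list the untreated flies lower. DS10_00002426 on scaffold 2 (3842734 to 3844125) stood at 6658, 5582 and 5825 FPKM in lab survivors, against 6895 FPKM in untreated lab flies, where it ranked first. In field flies it stood at 4498, 4106 and 4034 FPKM in survivors, against 4999.8 FPKM in untreated flies, so every lab value lay above every field value.

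The fourth to the tenth gene ranked among the first 16 gene models in every group. DS10_00011728 (scaffold 330, 66240 to 70058) ranked between 2 and 4 in every group, with levels from 4682 FPKM in untreated field flies to 7014 FPKM in lab zeta-cypermethrin survivors. DS10_00005842 (scaffold 6, 4232388 to 4232729) ranked between 1 and 10 and led in lab spinosad survivors, at 7065 FPKM. DS10_00010843 (scaffold 250, 35840 to 46702), the gene with the longest locus of the set, ranked between 4 and 9. DS10_00013563 ranked between 4 and 7, DS10_00006245 between 8 and 11, DS10_00005132 between 9 and 14, and DS10_00007869 between 5 and 16. The ranks of 16 and 13 of DS10_00007869 were those of lab and field spinosad survivors, and in the other 6 groups it stood at 5 to 8.

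Rank order over the 101 genes was similar in groups that lie in different tables. Without the spinosad groups, Spearman correlations over the members ran from 0.862 to 0.980 in 15 pairs of groups. Pairs with 1 spinosad group had lower values, from 0.757 to 0.882 in 12 pairs, and the 2 spinosad groups correlated at 0.931 with each other. Without the 10 genes whose untreated level differs between tables, described next, pairs with 1 spinosad group ran from 0.805 to 0.937 and pairs with none from 0.859 to 0.978. These values share transcript models, and groups in 1 table share its scaling, so they are descriptions without a p-value. All 101 genes were among the 202 strongest in lab malathion survivors, lab zeta-cypermethrin survivors and field malathion survivors, and 100 in field zeta-cypermethrin survivors. In spinosad survivors 98 in the lab and 96 in the field were. A gene outside the set took the first place in field spinosad and field zeta-cypermethrin survivors, where DS10_00009435 stood at 6471 and 7309 FPKM.

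The spinosad tables also differ from the others in the untreated flies. Per the labels, the 3 tables of a population hold the same untreated libraries. For the 101 genes the zeta-cypermethrin table lists them at 0.975 to 0.976 of the malathion value in lab flies and at 0.971 to 0.973 in field flies, 1 common factor. The spinosad table does not: 6 genes in lab flies (5.94%) and 10 in field flies (9.9%) differed from the malathion table by more than 1.5-fold. All of them were lower in the spinosad table. The 6 lab members were all among the 10 field members, which makes 100% of the lab list and 60% of the field list. The overlap over all gene models was not computed. Among the 8270 other gene models that both untreated groups held at 1 FPKM or more, 7.5% in the lab and 7.98% in the field differed as much. Among genes at 100 to 1000 FPKM, 4.57% in the lab and 5.39% in the field did, and these shares were not tested against those of the members.

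DS10_00008505, on scaffold 40 (275820 to 279154), showed the difference plainly. Untreated lab flies stood at 464 FPKM in the spinosad table and at 3578 FPKM in the malathion table. Untreated field flies stood at 291 FPKM in the spinosad table and at 3037 FPKM in the malathion table. Its survivors followed their tables, with 568 FPKM in lab and 382 FPKM in field spinosad survivors and between 3619 and 4609 FPKM in the survivors of the other insecticides. DS10_00009232 (592 and 2217 FPKM in untreated lab flies, 609 and 2031 FPKM in untreated field flies, spinosad table first), DS10_00012818 (377 and 1195, 485 and 1202 FPKM) and DS10_00009397 (149 and 1159, 225 and 1059 FPKM) behaved likewise. DS10_00007769, with a locus of 157 bp, is listed at 0 in untreated flies and survivors of both spinosad tables, and at 1059 FPKM in lab and 1037 FPKM in field untreated flies of the malathion tables. DS10_00010919 is listed at 0 in untreated lab flies of the spinosad table and at 2793 FPKM in the malathion table. Of the 10 genes, 3 have a locus that overlaps that of another gene model. A listed 0 may be a failed estimate, and a level of these 10 genes in a spinosad group cannot be set against the other groups.

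**Figure D3:**
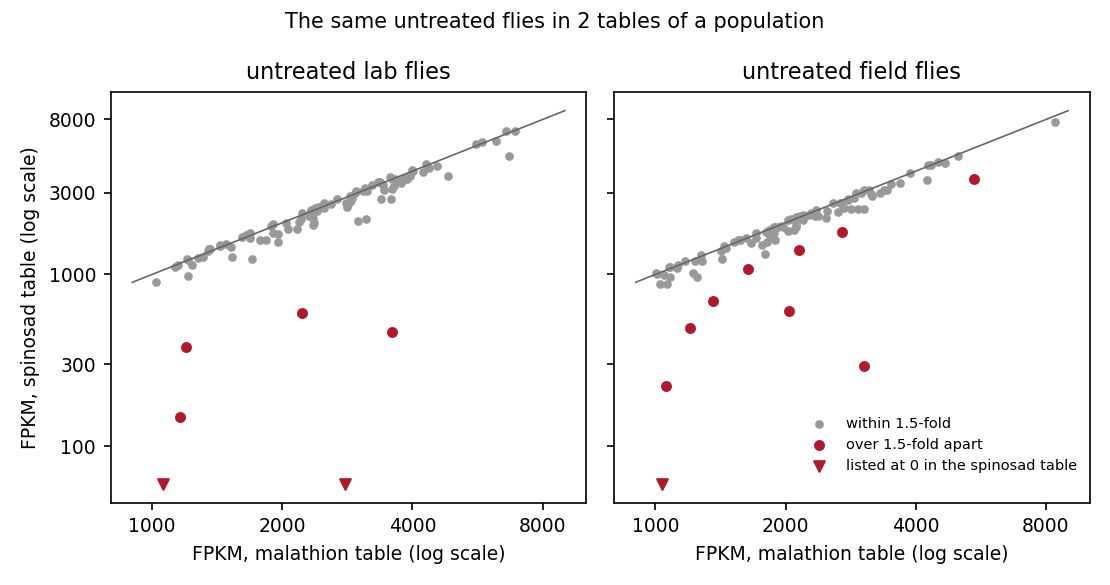
Each point is a member, by its FPKM in untreated flies in the malathion table (x axis) and in the spinosad table (y axis), both on log axes, for lab flies (left) and field flies (right), with a line of equal values. Red points, 6 in lab and 10 in field flies, lie more than 1.5-fold below the line, and triangles at the lower edge mark genes listed at 0 in the spinosad table, 2 in lab and 1 in field flies.

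Stability was read from the spread of a gene's log2 FPKM over groups, as an SD. Over the 6 survivor groups, which the choice of the genes did not use, the median SD was 0.160 for 100 members (1 with a listed 0 left out). It was 0.167 for 850 genes at 100 to 1000 FPKM in both untreated groups with the same ratio limits, and 0.172 for 4328 genes at 10 to 100 FPKM. Over the 4 survivor groups of the malathion and zeta-cypermethrin tables the medians were 0.156, 0.157 and 0.173, with an SD under 0.2 in 79.2% of members, 70.3% of genes at 100 to 1000 FPKM and 62.1% of genes at 10 to 100 FPKM. The median member thus varied about as much between survivor groups as genes of lower levels did, with no test of the small gaps. Over all 8 groups the medians were 0.168, 0.210 and 0.231. That order includes the untreated flies, whose values the choice had limited.

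The most even gene was DS10_00003263 on scaffold 2 (11224150 to 11224929). It stood at 1337, 1345 and 1389 FPKM in lab survivors of spinosad, malathion and zeta-cypermethrin, against 1353 FPKM in untreated lab flies. In field flies it stood at 1274, 1270.1 and 1388 FPKM in survivors, against 1173 FPKM in untreated flies, and its highest value was 1.18 times its lowest. DS10_00002493 and DS10_00005884 followed, with highest values 1.21 and 1.17 times their lowest. At the other end stood DS10_00010919, DS10_00009397 and DS10_00008505, with SDs of 2.48, 1.69 and 1.41 on the log2 scale over the 8 groups, all of which rest on the spinosad tables. Over the 4 survivor groups of the other tables their SDs were 0.225, 0.172 and 0.158.

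Within those 4 groups the largest spread belonged to DS10_00012799, whose locus of 189 bp lies on scaffold 622 (18570 to 18758). Lab zeta-cypermethrin survivors stood at 5185 FPKM and lab malathion survivors at 2901 FPKM, a ratio of 1.79. Field zeta-cypermethrin survivors stood at 2992 FPKM and field malathion survivors at 1418 FPKM, a ratio of 2.11. DS10_00007996 on scaffold 20 (349535 to 352902) was next, at 2485 FPKM in lab zeta-cypermethrin and 1369 FPKM in lab malathion survivors (ratio 1.82), and at 1317 and 720 FPKM in the field survivors (ratio 1.83). These were the 2 members in which zeta-cypermethrin survivors stood more than 1.5 times above malathion survivors in both populations. The median ratio over the members was 1.05 in lab and 1.16 in field flies. Survivors of these insecticides were not set against each other in a deposited test, so the ratios are descriptions.

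Lab survivors of spinosad and malathion mostly stood above field survivors, as the untreated flies did, while zeta-cypermethrin survivors were nearly even. The median log2 difference of lab over field was 0.20 in spinosad survivors (85 of 100 genes higher in the lab), 0.17 in malathion survivors (76 of 101) and 0.02 in zeta-cypermethrin survivors (56 of 101). In untreated flies it was 0.25 (87 of 101), a value the choice had limited. Lab and field tables were normalised separately, so these differences carry no test. The same counts over all gene models were not computed, so nothing here is particular to the members.

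Survivors were set against untreated flies of the same population with the authors' deposited Cuffdiff test, with a gene called at a q of 0.05 or less. The untreated libraries of each comparison are those that chose the 101 genes, and the 3 comparisons of a population share them. The counts are therefore given beside the share of all tested genes called in that direction, and nothing is read from the difference. In all, 33 of the 101 genes were called in at least 1 comparison (background 53% of the 11183 genes tested in at least 1 table) and 68 in none. Of the 101 genes, 27 were called in field comparisons only (background 44.7% of the tested genes). Of the same 101, 26 were called higher at least once (background 31.9%), 9 lower (23.6%) and 2 in both directions (2.55%).

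In lab flies few of the genes were called. Spinosad survivors had 4 of 100 tested genes higher (background 2.02% of all tested genes) and 2 lower (background 1.6%). Malathion survivors had 0 of 101 higher (background 2.98%) and 1 lower (background 2.65%), and zeta-cypermethrin survivors 0 of 101 higher (background 1.79%) and 1 lower (background 1.14%). By the same test at an unadjusted p under 0.05, 5 genes were higher and 2 lower for spinosad. These counts were 0 and 4 for malathion, and 1 and 1 for zeta-cypermethrin. The share of all tested genes at that p was not computed, so nothing is read from the counts, and no other tool was run. The median log2 fold change of the members was 0.08, −0.04 and 0.04 for spinosad, malathion and zeta-cypermethrin, beside 0.00, 0.03 and 0.00 for all tested genes.

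In field flies spinosad survivors had 9 of 100 tested genes higher (background 25.9%) and 3 lower (background 10.3%). Malathion survivors had 4 of 101 higher (background 17.8%) and 3 lower (background 4.22%). Zeta-cypermethrin survivors had 23 of 101 higher (background 27.8%) and 6 lower (background 20.4%). Among tested genes at 100 to 1000 FPKM, field spinosad survivors had 13.3% higher and 11.5% lower, and field malathion survivors 9.48% and 6.91%. Field zeta-cypermethrin survivors had 19% of them higher and 28.6% lower. The members' 22.8% higher in zeta-cypermethrin survivors lay under the share of all tested genes but above that of these genes. The other field shares of the members lay under both, and none of these gaps was tested. The median log2 fold change of the members was 0.14, −0.0016 and 0.30, beside −0.06, −0.06 and 0.01 for all tested genes and −0.22, −0.14 and −0.17 for genes at 100 to 1000 FPKM. These medians depend on the scaling. With each group brought to the same summed FPKM they were −0.049 for spinosad and 0.048 for zeta-cypermethrin, and with genes at 50 FPKM or more in both groups of the table set to 0 they were 0.42, 0.18 and 0.53. In zeta-cypermethrin survivors the summed FPKM over all gene models was 870093, against 749713 in untreated field flies of the malathion table. The zeta-cypermethrin table lists those untreated flies lower, at a median of 0.972 of the malathion value. The share of the members was 31.0% in the survivors against 30.9% in untreated flies.

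Stricter rules left fewer calls. At a q of 0.01 or less, lab spinosad survivors had 3 higher (background 1.39%) and 2 lower (1.05%), lab malathion survivors 0 higher (2.16%) and 1 lower (1.54%), and lab zeta-cypermethrin survivors 0 higher (0.973%) and 1 lower (0.85%). Field survivors had 6 higher (18.3%) and 1 lower (2.43%) for spinosad, 2 higher (12.7%) and 2 lower (1.06%) for malathion, and 10 higher (20.3%) and 3 lower (13.5%) for zeta-cypermethrin. With a q of 0.05 or less and at least a 2-fold difference, lab spinosad survivors had 3 higher (background 1.2%) and 0 lower (0.632%), lab malathion survivors 0 higher (2.73%) and 0 lower (1.05%), and lab zeta-cypermethrin survivors 0 higher (1.24%) and 0 lower (0.984%). Field survivors then had 7 higher (24.1%) and 1 lower (1.2%) for spinosad, 0 higher (15.4%) and 1 lower (0.503%) for malathion, and 1 higher (23.8%) and 0 lower (0.757%) for zeta-cypermethrin. Of these 2-fold calls in spinosad survivors, DS10_00010919 in the lab (against a listed 0) and DS10_00009397 in the field (109 against 225 FPKM) rest on levels that differ between tables.

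**Figure D4:**
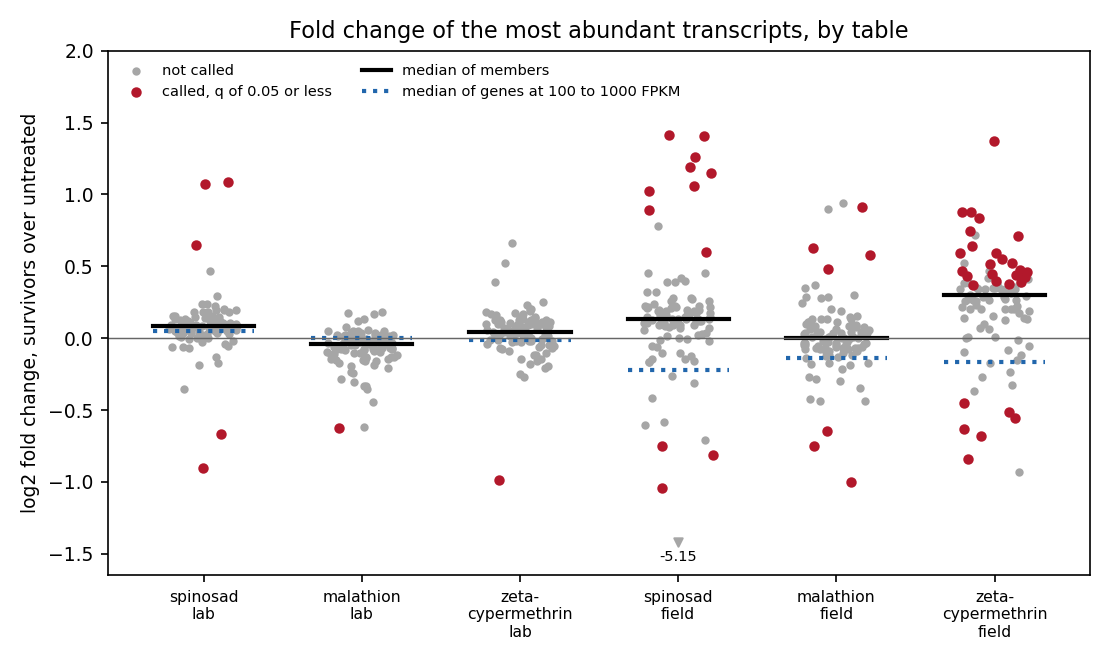
Points are members by their log2 fold change of survivors over untreated flies of the same table, red where called at a q of 0.05 or less, with the median of the members (black line) and of genes at 100 to 1000 FPKM (dotted line). Called members numbered 6, 1 and 1 in lab survivors of spinosad, malathion and zeta-cypermethrin, and 12, 7 and 29 in field survivors. Calls were more frequent in the field over all tested genes too. In lab flies 2.02%, 2.98% and 1.79% of all tested genes were called higher, and 1.6%, 2.65% and 1.14% lower. In field flies 25.9%, 17.8% and 27.8% of them were called higher, and 10.3%, 4.22% and 20.4% lower. DS10_00010919 lies off the scale at −5.15 in the field spinosad table (not called). It has no finite value in the lab spinosad table, so its call there has no red point. DS10_00007769 is not plotted for spinosad.

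DS10_00005456 was the gene called lower in all 6 comparisons. Its locus of 324 bp lies on scaffold 5 (4714951 to 4715274). In the authors' deposited tables lab survivors of spinosad, malathion and zeta-cypermethrin stood at 1498, 1513 and 1145 FPKM, against 2379, 2328 and 2270.0 FPKM in untreated lab flies of the same table. Field survivors stood at 1033, 855 and 1035 FPKM, against 1734, 1710.4 and 1662 FPKM in untreated field flies. Each survivor group thus lay below the untreated flies of its population, and the untreated values of the 3 tables lay close together. In lab flies the deposited log2 fold changes were −0.67 (q = 0.00246), −0.62 (q = 0.00348) and −0.99 (q = 0.00323) in the order of the insecticides. In field flies the deposited values were −0.75 (q = 0.0206), −1.001 (q = 5.1e-04) and −0.68 (q = 2.7e-04). The 3 comparisons of a population share untreated flies, so these are results from 2 untreated groups and not 6.

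A pair of neighbours, DS10_00004890 and DS10_00004891, was called higher in spinosad survivors of both populations. They lie 1648 bp apart on scaffold 4 (3245168 to 3246706 and 3248355 to 3250103). DS10_00004890 stood at 5418 FPKM in lab spinosad survivors against 3452 FPKM in untreated lab flies of that table, and at 2991 FPKM in field spinosad survivors against 1469 FPKM in untreated field flies. In the authors' deposited tables its log2 fold change was 0.65 in the lab (q = 0.0488) and 1.03 in the field (q = 0.0103). DS10_00004891 stood at 4199.7 FPKM in lab spinosad survivors against 1974 FPKM in untreated lab flies, and at 2908 FPKM in field spinosad survivors against 1099 FPKM in untreated field flies. Its deposited log2 fold change was 1.09 in the lab (q = 0.00246) and 1.40 in the field (q = 4.5e-04) in the authors' deposited tables. The spinosad groups held the highest values of both genes in each population. DS10_00004891 was also called higher in field zeta-cypermethrin survivors, at 1863 against 1045 FPKM in untreated field flies (log2 fold change 0.83, q = 0.00829, in the authors' deposited table). In field malathion survivors it stood at 2007 against 1076 FPKM in untreated field flies, a log2 fold change of 0.90 that was not called (q = 0.106, in the authors' deposited table). Neither gene is among those whose untreated level differed over 1.5-fold between tables. In lab survivors of malathion and zeta-cypermethrin they stood at 2169 and 2994 FPKM (DS10_00004890) and 1512 and 1795 FPKM (DS10_00004891), against 3335 and 1904 FPKM in untreated lab flies, with no call.

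DS10_00008400 on scaffold 30 (460198 to 462643) had the same calls as DS10_00004890. It stood at 2936 FPKM in lab spinosad survivors against 1399 FPKM in untreated lab flies, and at 2453 FPKM in field spinosad survivors against 1021 FPKM in untreated field flies. The log2 fold change in the authors' deposited tables was 1.07 in the lab (q = 0.00246) and 1.26 in the field (q = 0.00489). Lab survivors of malathion and zeta-cypermethrin stood at 994 and 1263 FPKM, and field survivors of them at 1233 and 1347 FPKM, none of them called. The other 2 genes called in lab spinosad survivors rest on levels that differ between tables. DS10_00009397 was lower in lab spinosad survivors in the authors' deposited table, at 79.4 against 148.5 FPKM, a level far under its 1159 FPKM in the malathion table, and DS10_00010919 was called higher there against a listed 0.

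In field flies the largest rise belonged to DS10_00000244, with a locus of 299 bp on scaffold 1 (3139847 to 3140145). Field flies that survived spinosad, malathion and zeta-cypermethrin stood at 2719, 2292 and 3063 FPKM, against 1019, 1219 and 1184 FPKM in untreated field flies of the same tables. All 3 survivor groups lay above the untreated flies, with log2 fold changes in the authors' deposited tables of 1.42 (q = 4.5e-04), 0.91 (q = 5.1e-04) and 1.37 (q = 2.7e-04). In lab flies it stood at 1513, 1992 and 2348 FPKM in survivors, against 1836 FPKM in untreated flies, with no call. DS10_00003030, DS10_00007071 and DS10_00007362 were also called higher in all 3 field comparisons and in 0 lab comparisons. The 3 field comparisons share their untreated flies. Of all tested genes, 25.9%, 17.8% and 27.8% were called higher in these field comparisons, and 2.02%, 2.98% and 1.79% in the lab ones. The share of all genes called in all 3 was not computed, and a difference of field and lab fold changes was not tested. For DS10_00007071 the field survivors stood at 2304, 1504 and 1802 FPKM, against 1009, 1006 and 978 FPKM in untreated field flies of the same tables, while untreated lab flies stood at 1888 FPKM. For this gene the field survivors lay nearer to untreated lab flies than untreated field flies did.

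Among the falls in field flies, DS10_00006947, the first gene of the set, was called lower in spinosad survivors (4402 against 7744 FPKM; log2 fold change −0.81, q = 0.0110 in the authors' deposited table). It was also called lower in zeta-cypermethrin survivors (5540.3 against 8141 FPKM; log2 fold change −0.56, q = 0.00580 in the authors' deposited table). In field malathion survivors it stood at 6589 FPKM and was not called. Among called genes DS10_00007878 on scaffold 16 (375943 to 378099) had the largest fall in field zeta-cypermethrin survivors, at 1022 against 1830.1 FPKM, a log2 fold change of −0.84 (q = 0.00130) in the authors' deposited table. DS10_00007769 was lower still in that table, at 529 against 1008 FPKM (−0.93), but was not called (q = 0.342 in the authors' deposited table). DS10_00012799 was called lower in field malathion survivors, at 1418 against 2383 FPKM (−0.75, q = 5.1e-04), and higher in field zeta-cypermethrin survivors, at 2992 against 2315 FPKM (0.37, q = 0.0447), in the authors' deposited tables.

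The 101 genes had short loci, the span of a gene model with its introns. Their median locus length was 1356 bp, beside 2132.5 bp for genes at 100 to 1000 FPKM, 2986 bp for genes at 10 to 100 FPKM and 2382.5 bp for all gene models. Loci under 1000 bp made up 36.6% of the members, 25.1% of genes at 100 to 1000 FPKM, 13.9% of genes at 10 to 100 FPKM and 23.6% of all gene models. Loci over 5000 bp made up 4.95%, 23.4%, 32.3% and 29.2% in the same order. FPKM is divided by transcript length, so length enters the measure that chose the genes, and its part in this order was not tested. Within the set, level and locus length were nearly unrelated (Spearman rho = −0.12 over 101 genes, a description across genes).

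**Figure D5:**
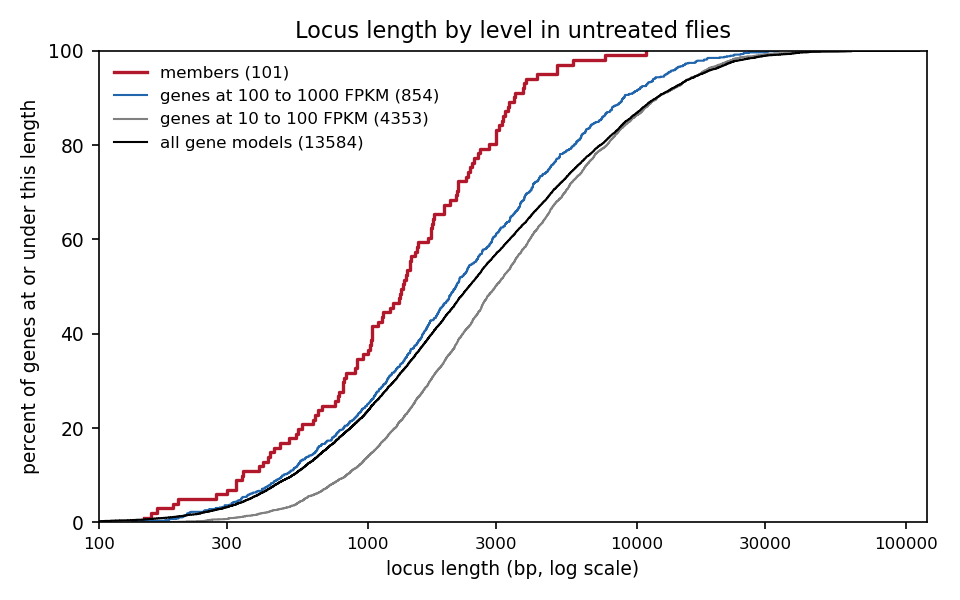
Curves give the percent of genes (y axis) at or under a locus length in bp (x axis, log scale) for the 101 members, for genes at 100 to 1000 and at 10 to 100 FPKM in both untreated groups, and for all gene models. The curve of the members lies to the left of the others, with medians of 1356, 2132.5, 2986 and 2382.5 bp in that order.

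The shortest loci of the set were those of DS10_00008165 (147 bp, scaffold 22, 425723 to 425869), DS10_00007769 (157 bp) and DS10_00007024 (165 bp, scaffold 10, 2839832 to 2839996). Loci under 300 bp numbered 7, or 6.93% of the members against 3.19% of all gene models. A transcript this short leaves few places for a sequenced fragment, and what this adds to the levels was not tested. Of the 17 members with loci under 500 bp, 16 had a level above 0 in all 8 groups, and their median SD was 0.287. It was 0.137 for the 20 members from 500 to 1000 bp, 0.165 for the 31 from 1000 to 2000 bp, 0.182 for the 27 from 2000 to 4000 bp and 0.166 for the 6 longer ones. Over 100 members spread and locus length were nearly unrelated (Spearman rho = 0.022, a description across genes). The longest loci were those of DS10_00010843 (10863 bp), DS10_00001675 (7639 bp, scaffold 1, 19086515 to 19094153) and DS10_00011701 (5815 bp, scaffold 405, 23381 to 29195), with highest values 1.33, 1.28 and 1.45 times their lowest over the 8 groups. The listed locus of DS10_00001675 overlaps that of another gene model, as do the loci of 3 further members, and part of such a span may not be its own.

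The members lay on 50 of 902 scaffolds. In the order of gene models, of which the members are 0.744%, 2 pairs stood next to each other. There were 0 runs of 3 or more, and these counts were not tested. The second pair, DS10_00002297 (scaffold 2, 2815271 to 2816079) and DS10_00002298 (2818519 to 2819297), lies 2439 bp apart. DS10_00002297 stood at 3799, 3663 and 3901 FPKM in lab survivors against 3819.5 FPKM in untreated lab flies, and DS10_00002298 at 4378, 3695 and 3933 FPKM against 4231 FPKM. In field flies they stood at 3537, 3337 and 4258 FPKM in survivors against 3148 FPKM in untreated flies, and at 2978, 2922 and 3312 FPKM against 3383 FPKM. DS10_00002297 was called higher in field zeta-cypermethrin survivors (log2 fold change 0.48, q = 0.0188, in the authors' deposited table) and DS10_00002298 in no comparison.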

How the data were processed

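RNA of whole adult flies was sequenced from stranded, paired-end libraries, per the labels' protocols. The submitters' processing notes name FastQC, TopHat2 2.0.13, Cuffdiff and Cufflinks 2.2.1. Neither build nor annotation is stated (not given in the sources used here). The authors deposited FPKM per group with replicates pooled, per the file headers, and beside it a log2 fold change of survivors over untreated flies, a test statistic (score), a p-value (lowest listed value 5e-05) and a q-value over the genes tested in that table. The sign and size of the deposited log2 values matched the FPKM columns. Locus starts, deposited from 0, are printed from 1 and hold on the authors' scaffolds only. Columns named q1 and q2 in the malathion and zeta-cypermethrin tables were read as untreated flies and survivors, as the tables' names and the named columns of the spinosad tables order them. No raw counts were analysed here, so no count test, interval or replicate error could be computed.

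The members, lists and comparisons were chosen with earlier results of these data known. Genes named were the first 10 by level, the 3 just inside and just outside the floor, the largest called changes per table (2 each way), the extremes of spread and of locus length (3 each), and neighbours; DS10_00009435, DS10_00012799, DS10_00007996, DS10_00003030 and DS10_00007362 and the genes that differ between tables were also named after their values were seen. The gene lists set out by name could not be applied, since no identifier matched. Values were computed with Python 3.11.15, pandas 2.3.3 and numpy 2.4.6, tested on simulated data. Alternatives changed the floor, the ratio limits, the source of the untreated values, the scaling, a pseudocount of 1 and the q threshold.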

Additional observations from a re-analysis of the deposited data

How the results depend on the processing

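The floor decided the size of the set. At 500 FPKM it held 169 genes, all 101 among them, and at 2000 FPKM 49. With 2000 FPKM the share of summed FPKM was 22.5%, 22.4% and 22.7% in lab survivors of spinosad, malathion and zeta-cypermethrin, against 22.7% in untreated lab flies. In the field it was 18.9%, 19.0% and 20.6%, against 20.3% in untreated field flies, so the lab groups again lay above the field groups. With 500 FPKM the share rose to 43.0%, 41.3% and 42.3% in lab survivors, against 42.5% in untreated lab flies. In the field it rose to 37.8%, 37.2% and 38.9% in survivors, against 38.2% in untreated field flies. Of the 49 genes, all tested, calls at 2000 FPKM fell to 0 higher (background 2.02%) and 0 lower (background 1.6%) for lab spinosad. They fell to 0 lower for lab malathion (background 2.65%) and 0 lower for lab zeta-cypermethrin (background 1.14%). In the field they came to 0 higher (background 25.9%) and 1 lower (2.04%, background 10.3%) for spinosad. For malathion they were 0 higher (background 17.8%) and 1 lower (2.04%, background 4.22%). For zeta-cypermethrin they were 10 higher (20.4%, background 27.8%) and 1 lower (2.04%, background 20.4%). At 500 FPKM, with 168 genes tested for spinosad and 169 for the others, they were 8 higher for lab spinosad (4.76%, background 2.02%), 3 lower for lab malathion (1.78%, background 2.65%) and 2 higher for lab zeta-cypermethrin (1.18%, background 1.79%). In the field they were 27 higher (16.1%, background 25.9%) and 8 lower (4.76%, background 10.3%) for spinosad, 20 higher (11.8%, background 17.8%) and 7 lower (4.14%, background 4.22%) for malathion, and 45 higher (26.6%, background 27.8%) and 20 lower (11.8%, background 20.4%) for zeta-cypermethrin. Neighbouring pairs numbered 6 at 500 FPKM and 1 at 2000 FPKM. A ratio limit of 0.5 to 2 kept 98 genes, with 2 called higher for lab spinosad (background 2.02%) and 1 neighbouring pair. Choosing with untreated values of the spinosad tables kept 90 of the 101 and left 1 called lower for lab spinosad (background 1.6%). Leaving out the 10 genes that differ between tables, a choice made after seeing the data, left 1 as well. Recentring on genes at 50 FPKM or more gave median log2 fold changes of 0.42, 0.18 and 0.53 in field flies (spinosad, malathion and zeta-cypermethrin survivors). Equal summed FPKM gave −0.049, −0.090 and 0.048 in the same order. At a q of 0.01 field calls were 1 lower for spinosad (background 2.43%) and 2 higher for malathion (background 12.7%). For zeta-cypermethrin they were 10 higher (background 20.3%) and 3 lower (background 13.5%). With at least a 2-fold difference calls were 0 lower for each lab comparison (background 0.632%, 1.05% and 0.984%). In the field they were 1 lower for spinosad (background 1.2%), and 0 higher (15.4%) and 1 lower (0.503%) for malathion. Field zeta-cypermethrin had 1 higher (background 23.8%) and 0 lower (background 0.757%). The remaining values held by wide limits: counts, shares, spreads and lengths within 1.5 times, or median log2 fold changes within 0.1. No paired analysis was possible because the deposited columns pool the replicates, and for the same reason leaving out a replicate could not be run. Depth and replicate spread are unknown, so no difference in level or share has an error of its own.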
